A study of Mus musculus with 18 samples.

Results

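Socs3 and 9 other genes of STAT3 signalling and the acute-phase response were followed in mouse prostate, out of 55469 gene IDs measured. Socs3 was chosen by measured values, namely a difference between Elac2 knockout and wild-type mice that was not the same at 10 and 30 weeks, so its values in the knockout are described without a test. The other 9 (Stat3, Osmr, Il6st, Il6ra, Cebpd, Serpina3n, Lcn2, Saa3 and Lrg1) were taken for their known place in the pathway. They were taken with earlier results of these data known. All 10 were present in every table.

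STAT3 is a transcription factor that is phosphorylated by JAK kinases when a cytokine of the interleukin-6 family binds its receptor. IL6RA binds interleukin-6, OSMR binds oncostatin M, and both pair with the shared signalling chain gp130, which is encoded by Il6st. Active STAT3 induces Socs3, whose protein blocks gp130 and JAK kinases and so closes a negative feedback loop, together with Cebpd and acute-phase genes such as Serpina3n, Lrg1, Lcn2 and Saa3. In prostate epithelium the pathway is best known from inflammation and from progression of tumours.

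The samples were total RNA from the ventral and lateral lobes of male mice on a strain labelled C56NL/6N, with 3 libraries for each of 6 groups. All mice, controls included, carried 1 copy of TRAMP, which expresses SV40 T antigens in prostate epithelium from the probasin promoter and starts tumours there. WT-TRAMP mice had wild-type Elac2, the gene of the nuclease that trims the 3′ ends of precursor tRNAs. KO-TRAMP mice were homozygous for a floxed Elac2 whose exon 8 is removed by Cre from the probasin (Pb) promoter, so that only prostate epithelial cells are targeted and stromal and immune cells keep the gene. A537T-TRAMP mice were homozygous in the whole body for the A537T protein change. Each genotype was sampled at 10 and at 30 weeks. The libraries are called by the numbers in the column headers. At 10 weeks WT-TRAMP had libraries 1 to 3, A537T-TRAMP had 4 to 6, and 7 to 9 were from KO-TRAMP. At 30 weeks WT-TRAMP had libraries 10 to 12, A537T-TRAMP had 13 to 15, and 16 to 18 were from KO-TRAMP.

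Depth was between 9380174 and 14830104 reads per library. Elac2 itself had 214 to 411 reads and overlapped between mutant and WT-TRAMP libraries in all 4 comparisons, but these gene totals do not resolve exon 8. The 8 luminal prostate markers were detected in every library, with a summed level of 1932 to 3488 RPM (reads in 1000000 reads of the library). Some libraries stood apart. Seminal vesicle markers summed to 12587 or more RPM in libraries 5, 6, 9, 10, 12, 13 and 15, and to at most 2674 in the others. The authors describe removing those glands at dissection. Neuroendocrine markers summed to 1300 and 808 RPM in KO-TRAMP libraries 17 and 18 and to 0.356 in library 16. Values below are normalized counts, which are read counts divided by 1 factor per library set within a table of 6, given as mean ± SD with n = 3. Log2 fold changes were taken after adding 1 to each normalized count and carry a standard error (SE). Adjusted p-values are from limma, by the Benjamini-Hochberg method over all tested genes, and the threshold was 0.05.

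Socs3 (ENSMUSG00000053113.3, GRCm38 chromosome 11, 117966079 to 117970047, minus strand) was low at 10 weeks and high in KO-TRAMP at 30 weeks. At 10 weeks its normalized counts were 52.5, 58.7 and 28.6 in WT-TRAMP libraries 1, 2 and 3, while KO-TRAMP libraries 7, 8 and 9 had 18.9, 14.7 and 39.5. The knockout libraries lay lower on average, but library 9 was above the lowest WT-TRAMP library. At 30 weeks the counts were 58.2, 24.0 and 46.7 in WT-TRAMP libraries 10, 11 and 12, while KO-TRAMP libraries 16, 17 and 18 had 206, 283 and 261. Every 30-week knockout library was therefore more than 3 times above every wild-type library of that age. The log2 fold change was −0.97 (SE 0.44) at 10 weeks and 2.59 (SE 0.35) at 30 weeks, a difference of 3.56 (SE 0.60) between the ages. These are the values that chose the gene. When 1 library at a time was left out, the 10-week value ran from −1.37 to −0.68 and the 30-week value from 2.23 to 2.85. The SEs and these ranges come from the same selected values, so they are a description and not a test.

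The A537T-TRAMP values of Socs3 did not enter the choice of the gene, but they are compared with the same WT-TRAMP libraries. At 10 weeks the normalized counts were 30.1, 11.1 and 31.0 in A537T-TRAMP libraries 4, 5 and 6 against 48.2, 54.1 and 26.3 in WT-TRAMP (log2 fold change −0.88, SE 0.50, limma adjusted p = 0.606). Without library 5, the library with the most seminal vesicle RNA, the 10-week value was −0.41. At 30 weeks they were 47.5, 132 and 96.7 in libraries 13, 14 and 15 against 58.0, 23.3 and 46.9 in WT-TRAMP. Libraries 14 and 15 lay above all WT-TRAMP libraries and library 13 lay among them. The 30-week difference was 1.07 on the log2 scale (SE 0.47, 95% interval −0.03 to 2.17, limma adjusted p = 0.702), and the difference between the ages was 1.94 (SE 0.72, adjusted p = 0.721).

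**Figure D1:**
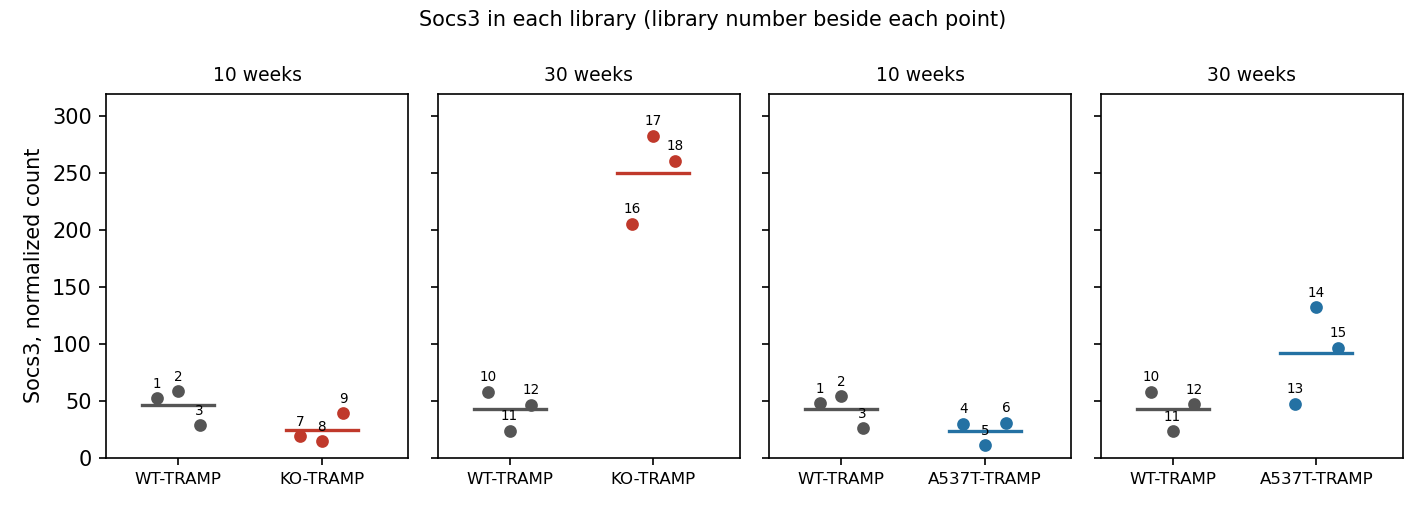
Socs3 in each library. The y axis is the normalized count, each panel is 1 table of 6 libraries, points are libraries with their numbers and bars are group means. All 3 KO-TRAMP libraries of 30 weeks, at 206 to 283, lie above their WT-TRAMP libraries, as do A537T-TRAMP libraries 14 and 15 at 132 and 96.7, while library 13 does not.

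Ordered by RPKM (RPM per kilobase of exon), Socs3 was lowest in KO-TRAMP at 10 weeks (0.758 ± 0.419) and A537T-TRAMP at 10 weeks (0.766 ± 0.404). WT-TRAMP followed at 30 weeks (1.29 ± 0.536) and at 10 weeks (1.39 ± 0.477), then A537T-TRAMP at 30 weeks (2.82 ± 1.30) and KO-TRAMP at 30 weeks (7.83 ± 1.50). Each of the first 5 groups overlapped its neighbour in this order. The top group did not, since its lowest library, at 6.16 RPKM, was above every library of A537T-TRAMP. The tables were scaled separately and libraries rich in seminal vesicle RNA dilute every other gene, so this order is a description.

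The window from 250 bases before to 50 after the RefSeq start was searched on both strands in the 9 members that have one (Cebpd is the other) for the STAT motif TTCNNNGAA and the C/EBP motif TTGCNNAA. These motifs were searched because Socs3 is the textbook STAT3 target and C/EBP factors act on acute-phase promoters. The STAT motif was found in Socs3 alone, 1 of 9 members (11.1%) against 8.30% of 32851 promoters of this length. The C/EBP motif was found in Lcn2 and Saa3, 2 of 9 (22.2%) against 10.8%. In Saa3 the match reads on the opposite strand. Capitals mark the matched letters in these RefSeq sequences of build GRCm38.p6, each written along its gene with positions counted from the start site:
Socs3, chr11:117969482-117969550, minus strand, motif from position −154: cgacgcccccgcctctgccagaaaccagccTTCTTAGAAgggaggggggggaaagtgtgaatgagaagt
Lcn2, chr2:32387918-32387985, minus strand, motif from position −216: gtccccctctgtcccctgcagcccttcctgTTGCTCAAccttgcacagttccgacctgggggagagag
Saa3, chr7:46715738-46715805, minus strand, motif from position −99: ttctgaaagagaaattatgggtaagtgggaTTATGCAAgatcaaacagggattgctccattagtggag
The Socs3 and Lcn2 stretches lie upstream of the RefSeq start but inside the bounds of their genes in the GENCODE annotation. The Saa3 stretch is upstream of the gene. The absence of a match says only that these letters are not in the window.

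Of the receptor genes, Osmr differed most at 30 weeks while Il6st and Il6ra differed little. Osmr (ENSMUSG00000022146.12, chromosome 15, 6813577 to 6874969, minus strand) had normalized counts of 180, 169 and 160 in WT-TRAMP libraries 10, 11 and 12, while KO-TRAMP libraries 16, 17 and 18 had 752, 264 and 296. The groups did not overlap, and library 16 was far above the other knockout libraries. The groups differed by 1.19 on the log2 scale (SE 0.40, limma adjusted p = 0.343), or by 0.72 without library 16, where it passed the threshold (adjusted p = 0.0320). In the A537T-TRAMP table the counts were 261, 345 and 276 in libraries 13, 14 and 15 against 158, 147 and 139, again without overlap. The difference was 0.98 on the log2 scale (SE 0.15, limma adjusted p = 0.214). DESeq2 on the recovered reads placed it past the threshold (0.98, adjusted p = 0.000349). At 10 weeks Osmr overlapped between groups, with 63.8, 126 and 94.6 in KO-TRAMP against 102, 96.2 and 73.8 (0.02, SE 0.27, limma adjusted p = 0.992).

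Il6st (ENSMUSG00000021756.12, chromosome 13, 112464070 to 112510086, plus strand) was the member with the highest level per length in WT-TRAMP, at 18.8 ± 2.66 RPKM at 30 weeks. At 30 weeks KO-TRAMP had a normalized count of 2674 ± 306 against 2420 ± 309 in WT-TRAMP (log2 fold change 0.15, 95% interval −0.19 to 0.48, limma adjusted p = 0.597). In A537T-TRAMP it was 2589 ± 88.9 against 2273 ± 301 (0.20, 95% interval −0.06 to 0.45, limma adjusted p = 0.740). Il6ra (ENSMUSG00000027947.11, chromosome 3, 89864059 to 89913196, minus strand) had 278 ± 48.9 in 30-week KO-TRAMP against 234 ± 26.4 in WT-TRAMP (0.24, 95% interval −0.20 to 0.68, limma adjusted p = 0.525). In A537T-TRAMP it was 244 ± 67.9 against 223 ± 24.4 (0.10, adjusted p = 0.943). At 10 weeks both genes overlapped between groups in both lines, with log2 fold changes from −0.19 to 0.19.

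Stat3 (ENSMUSG00000004040.16, chromosome 11, 100885098 to 100939540, minus strand), the transcription factor of the pathway, had 30-week normalized counts of 1224, 1388 and 1351 in WT-TRAMP and 2168, 1235 and 1726 in KO-TRAMP libraries 16, 17 and 18. Libraries 16 and 18 were above every WT-TRAMP library and library 17 was not (log2 fold change 0.34, SE 0.21, limma adjusted p = 0.464). In A537T-TRAMP the counts were 1216, 1425 and 1445 against 1101, 1239 and 1207 (0.20, SE 0.10, adjusted p = 0.723). At 10 weeks Stat3 was 1139 ± 73.7 in KO-TRAMP against 1400 ± 246 in WT-TRAMP (−0.29, adjusted p = 0.756), and 1070 ± 57.2 in A537T-TRAMP against 1217 ± 216 (−0.17, adjusted p = 0.708). The tables hold RNA and say nothing of STAT3 phosphorylation.

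Cebpd (ENSMUSG00000071637.5, chromosome 16, 15887286 to 15891031, plus strand), a transcription factor induced with the acute-phase response, was low throughout. At 30 weeks its normalized counts were 53.5, 24.1 and 34.5 in KO-TRAMP libraries 16, 17 and 18 against 33.6, 23.0 and 29.6 in WT-TRAMP (log2 fold change 0.31, SE 0.38, limma adjusted p = 0.685). In A537T-TRAMP they were 33.6, 87.0 and 57.8 in libraries 13, 14 and 15 against 32.7, 21.5 and 27.7. The A537T-TRAMP libraries did not overlap WT-TRAMP, but library 13 cleared the highest of them by about 1 count (1.01, SE 0.38, adjusted p = 0.684, and 0.69 without library 14). At 10 weeks the groups overlapped in both lines, at −0.23 for KO-TRAMP and 0.36 for A537T-TRAMP.

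Serpina3n showed the largest 30-week difference of the tested members in both lines. Serpina3n (ENSMUSG00000021091.8, chromosome 12, 104406729 to 104414329, plus strand) encodes a secreted serine protease inhibitor related to human antichymotrypsin. Of its 30-base words, 6.29% also occur in its paralog Serpina3f, the gene that shares most of them, and the share over all other genes was not taken. In KO-TRAMP at 30 weeks the normalized counts were 913, 238 and 475 in libraries 16, 17 and 18, against 45.9, 48.0 and 65.0 in WT-TRAMP. The groups did not overlap, and the lowest knockout library was above 3 times the highest wild-type library. The log2 fold change was 3.14 (SE 0.48, 95% interval 1.97 to 4.31), with a limma adjusted p of 0.0982. It passed the threshold in DESeq2 on the recovered reads (3.35, adjusted p = 4.30e-08) and in limma without library 16 (2.66, adjusted p = 0.0134), and not in edgeR (adjusted p = 0.114).

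In A537T-TRAMP at 30 weeks Serpina3n was at 122, 176 and 145 against 42.2, 43.9 and 59.7 in WT-TRAMP, also without overlap. The log2 fold change was 1.58 (SE 0.22, 95% interval 1.06 to 2.11), with a limma adjusted p of 0.201 and a DESeq2 adjusted p of 6.00e-05. At 10 weeks the gene was 39.0 ± 10.1 in KO-TRAMP against 46.3 ± 18.7 in WT-TRAMP (−0.18, SE 0.38, limma adjusted p = 0.952), and 33.0 ± 19.0 in A537T-TRAMP against 41.0 ± 16.7 (−0.40, SE 0.57, adjusted p = 0.811). Per length, Serpina3n went from 2.21 ± 0.432 RPKM in 30-week WT-TRAMP, below Il6st and Stat3, to 23.4 ± 13.9 RPKM in 30-week KO-TRAMP, where Il6st was at 21.7 ± 1.68 RPKM.

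Lrg1 (ENSMUSG00000037095.8, chromosome 17, 56119678 to 56122001, minus strand), which encodes a secreted leucine-rich glycoprotein of the acute phase, was the member furthest below WT-TRAMP in the 10-week knockout. Its normalized counts were 19.8, 13.7 and 17.5 in KO-TRAMP libraries 7, 8 and 9 against 51.6, 31.2 and 62.8 in WT-TRAMP. The groups did not overlap, as for 6.26% of genes in that direction (log2 fold change −1.42, SE 0.35, limma adjusted p = 0.659). At 30 weeks KO-TRAMP libraries 16, 17 and 18 had 404, 23.3 and 179 against 41.4, 43.2 and 36.5. Library 17 lay below all WT-TRAMP libraries and the other knockout libraries above them (1.55, SE 0.99, adjusted p = 0.467, and 2.71 without library 17 or 0.68 without library 16). In A537T-TRAMP at 30 weeks they were 50.0, 227 and 78.7 against 43.2, 45.7 and 38.4 (1.17, SE 0.51, adjusted p = 0.701, and 0.56 without library 14). These groups did not overlap, and library 14 was far above the rest. At 10 weeks A537T-TRAMP was at 28.6 ± 12.8 against 47.2 ± 14.9 (−0.73, SE 0.42, adjusted p = 0.606).

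Lcn2 (ENSMUSG00000026822.14, chromosome 2, 32384633 to 32388252, minus strand) encodes lipocalin 2, which binds bacterial siderophores. Its counts differed widely among libraries of the same group. At 30 weeks its normalized counts were 596, 24.1 and 219 in KO-TRAMP libraries 16, 17 and 18 and 323, 62.4 and 177 in WT-TRAMP libraries 10, 11 and 12 (log2 fold change −0.05, 95% interval −3.02 to 2.92, limma adjusted p = 0.985). The sign turned under other settings. In A537T-TRAMP they were 462, 128 and 294 (0.85, SE 0.66, adjusted p = 0.803). At 10 weeks library 5 of A537T-TRAMP was at 1240 while libraries 4 and 6 were at 43.1 and 36.7, and library 9 of KO-TRAMP was at 252 while libraries 7 and 8 were at 42.3 and 21.5. WT-TRAMP at 10 weeks was at 35.8 ± 12.0 in the KO-TRAMP table. Without library 5 the 10-week A537T-TRAMP log2 fold change went from 2.02 to 0.38, and without library 9 the KO-TRAMP value went from 0.82 to −0.18.

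Lcn2 was high in libraries with much seminal vesicle RNA. The 6 libraries with at least 15000 RPM of seminal vesicle markers (5, 9, 10, 12, 13 and 15) had 15.2 to 97.0 RPM of Lcn2. The 9 libraries under 1000 RPM had 1.89 to 11.2. KO-TRAMP library 16 did not follow this order, with 51.5 RPM of Lcn2 at a marker sum of 2674, nor did KO-TRAMP library 18, with 20.2 at a sum of 1069, or A537T-TRAMP library 6, with 3.38 at a sum of 12587. These bounds were set after the values were seen, and the part of seminal vesicle tissue in the Lcn2 values was not tested.

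**Figure D2:**
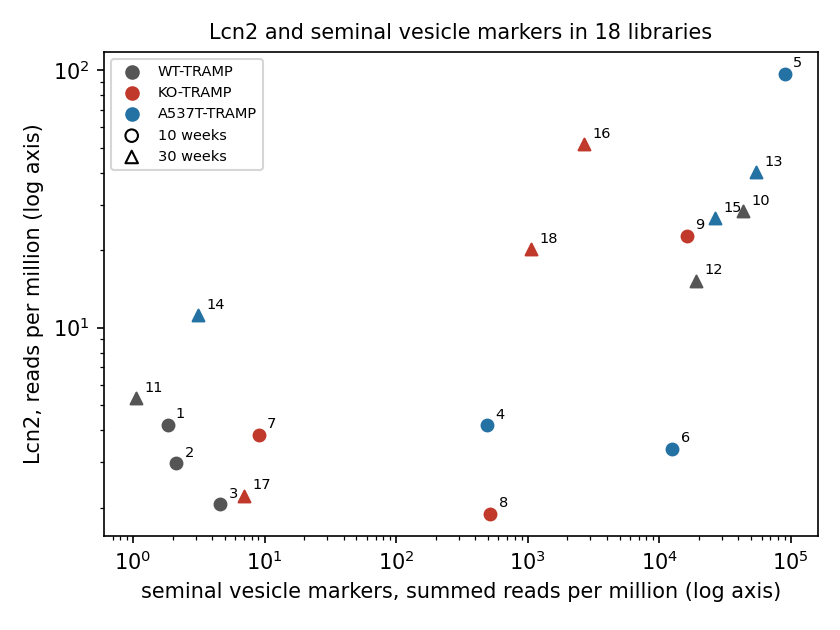
Lcn2 against seminal vesicle markers. Both axes are RPM on log scales, and each point is 1 of 18 libraries with its number. Library 5 is highest on both axes, and library 16 has 51.5 RPM of Lcn2 at a marker sum of 2674.

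Saa3 (ENSMUSG00000040026.8, chromosome 7, 46711998 to 46715700, minus strand), a serum amyloid A gene, was close to absent. Its normalized count was at most 5.70 in any library and its mean was under the minimum of 10 in all 4 tables, so it was not tested and 9 of the 10 members were. In 30-week KO-TRAMP it was 4.12, 0.729 and 5.22 against 3.36, 0.960 and 0 in WT-TRAMP, which overlap. In 30-week A537T-TRAMP it was 0, 3.58 and 2.99.

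**Figure D3:**
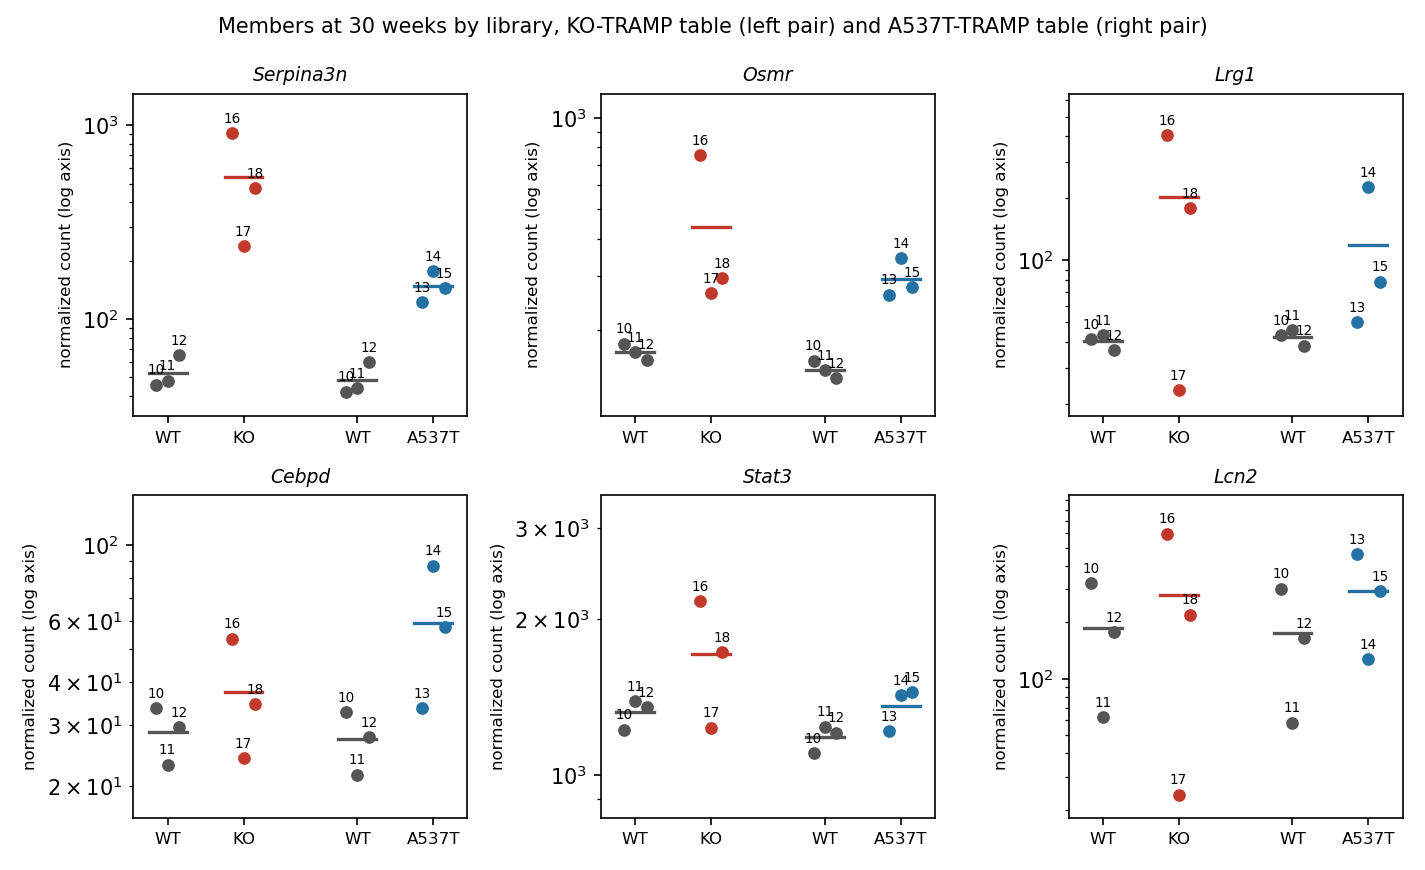
Members at 30 weeks by library. The y axes are normalized counts on log scales, the left pair in each panel is the KO-TRAMP table and the right pair the A537T-TRAMP table, and bars are group means. Serpina3n and Osmr do not overlap WT-TRAMP in either line, while KO-TRAMP library 17 falls to 23.3 for Lrg1 and 24.1 for Lcn2.

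Within 30-week KO-TRAMP, Socs3 was ordered unlike the other members. Library 17 had the highest Socs3 count and the lowest count of 8 of the 9 other members. Library 16 had the lowest Socs3 count and the highest count of 8 of the 9. The exceptions were Il6st, lowest in library 18, and Saa3, highest in library 18. In 30-week A537T-TRAMP, by contrast, library 14 had the highest Socs3 count and also the highest count of 6 of the 9 others. Seminal vesicle markers in library 14 summed to 3.13 RPM, against 54507 and 26491 in libraries 13 and 15. With 3 libraries in a group these orders are a description, and the parts of seminal vesicle tissue and of neuroendocrine cells in them were not tested.

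Counted over the members, none passed the limma threshold in any comparison. The members were chosen with earlier results of these data known, so the shares of all genes beside their counts are no test. In 30-week KO-TRAMP, 0 of the 8 tested members besides Socs3 passed, against 0.213% of 16900 genes. At an unadjusted limma p under 0.05 they were 2 of 8 (Osmr and Serpina3n), both higher, against 7.70% of genes. DESeq2 called 1 (Serpina3n) against 4.77% of genes, and edgeR called 0 against 0.0888%. Of these 8, 2 had every knockout library above every WT-TRAMP library, against 10.8% of genes. Their log2 fold changes were above 0 in 7 of 8 (50.9% of genes), with a median of 0.32, where the median of all genes was 0.01.

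In 30-week A537T-TRAMP, 0 of the 9 tested members passed limma, where no gene of 16261 did. At an unadjusted limma p under 0.05 they were 3 of 9 (Osmr, Cebpd and Serpina3n), all higher, against 3.98% of genes. DESeq2 called 2 (Osmr and Serpina3n) against 1.04% of genes, and edgeR called none of the members and none of all genes. Of the 9, 4 (Osmr, Cebpd, Serpina3n and Lrg1) had every mutant library above every WT-TRAMP library, against 7.36% of genes. All 9 log2 fold changes were above 0 (50.0% of genes), with a median of 0.98, or 0.92 for the 8 without Socs3. Both lines are compared with the same 3 WT-TRAMP libraries, so the counts of the lines are not independent of each other.

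At 10 weeks no member passed in either line. In KO-TRAMP 1 of 8 had an unadjusted limma p under 0.05 (Lrg1, lower, against 2.93% of genes lower). The limma threshold was passed by 0.0129% of 15451 genes there, and DESeq2 (0.597% of genes) and edgeR (none) called none of the 8. The median log2 fold change of the 8 was −0.19. In A537T-TRAMP 0 of 9 had an unadjusted limma p under 0.05, against 7.89% of genes, and none was called by DESeq2 (0.964% of genes) or edgeR (none). Limma passed 0.00648% of 15438 genes in that table, and the median of the 9 members was −0.12.

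**Figure D4:**
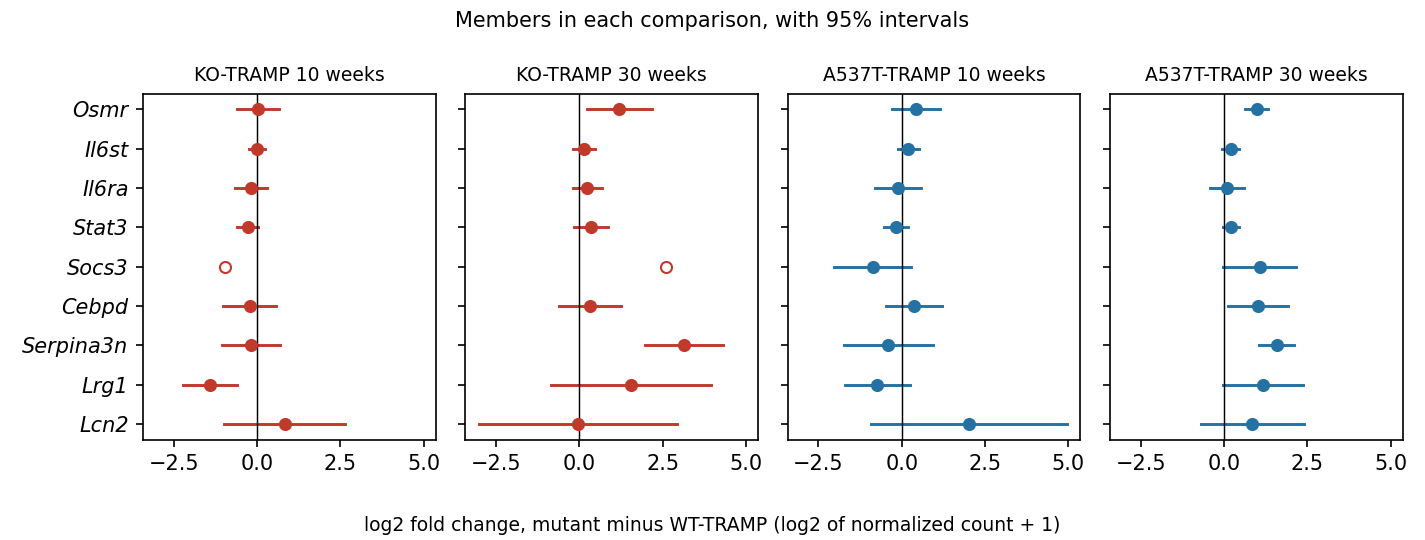
Members in each comparison. The x axis is the log2 fold change, mutant minus WT-TRAMP, on the log2(normalized count + 1) scale, and lines are 95% intervals. Open circles are Socs3 in KO-TRAMP (−0.97 and 2.59), drawn without an interval because it chose the gene, and the intervals of Serpina3n and Osmr lie above 0 at 30 weeks in both lines.

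The difference between the effects at 30 and at 10 weeks was estimated for each line over 12 libraries, and no gene of 16431 in KO-TRAMP or of 15941 in A537T-TRAMP passed limma. For KO-TRAMP the difference was 3.32 for Serpina3n (SE 0.65, limma adjusted p = 0.180), 2.97 for Lrg1 (SE 1.10, adjusted p = 0.327), 1.17 for Osmr (SE 0.51, adjusted p = 0.371) and 0.62 for Stat3 (SE 0.26, adjusted p = 0.363). These 4 of the 8 members besides Socs3 had an unadjusted p under 0.05, against 6.31% of genes in that direction. DESeq2 called Serpina3n (adjusted p = 0.000180) and Lrg1 (adjusted p = 0.0169), against 2.35% of genes, and limma called Serpina3n without library 16 (2.84, adjusted p = 0.0148). For A537T-TRAMP the differences were 1.99 for Serpina3n (SE 0.64) and 1.90 for Lrg1 (SE 0.70), beside 1.94 for Socs3, each with an adjusted p of 0.721. Socs3 was chosen on the same WT-TRAMP libraries. Of the 8 members besides it, 2 had an unadjusted p under 0.05, against 2.66% of genes in that direction, and DESeq2 called none of the 9 (0.327% of genes). EdgeR called no gene for either line.

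Other genes of the pathway were followed in 6 lists that hold 93 genes. In 30-week KO-TRAMP 65 of them were tested, and 1 passed limma. That gene was Serping1, which encodes the inhibitor of complement C1. Its normalized counts were 889, 875 and 833 in libraries 16, 17 and 18 against 375, 369 and 386 in WT-TRAMP, a rise of 1.20 on the log2 scale (SE 0.10, limma adjusted p = 0.0313). It also passed edgeR (adjusted p = 0.0377) and DESeq2 (adjusted p = 1.76e-24). The limma call was lost when any 1 of 5 of the 6 libraries was left out, with adjusted p-values up to 0.341, and held without library 16 (adjusted p = 0.00702), while the log2 fold change moved by less than its SE. Of the acute-phase proteins 10 of 30 genes were tested. Of these, 8 lay above 0 with a median of 0.40, and 4 lay above WT-TRAMP without overlap (10.8% of genes).

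The 3 other genes of the lists were named by size at 30 weeks in KO-TRAMP. The tissue inhibitor of metalloproteinases Timp1 was at 587, 61.2 and 276 against 26.9, 22.1 and 31.9 (log2 fold change 2.97, SE 0.79, limma adjusted p = 0.307). Complement C3 was at 2770, 1300 and 2050 against 429, 520 and 513 (2.00, SE 0.28, limma adjusted p = 0.0749), and without library 16 or library 17 it passed limma (adjusted p = 0.0119 and 0.0385). The lipopolysaccharide-binding protein Lbp was at 677, 190 and 231 against 67.1, 112 and 69.5 (1.93, SE 0.51, limma adjusted p = 0.306). Library 16 was highest for all of these genes, as for most members. DESeq2 placed C3 (adjusted p = 7.61e-09), Timp1 (adjusted p = 0.000360) and Lbp (adjusted p = 0.00831) past the threshold.

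In 30-week A537T-TRAMP 65 listed genes were tested and none passed limma. C3 was at 1739, 1120 and 1682 against 406, 490 and 482 (log2 fold change 1.70, SE 0.18, limma adjusted p = 0.124, DESeq2 adjusted p = 2.67e-14). Lbp was at 258, 181 and 244 against 65.3, 108 and 67.2 (1.52, SE 0.24, limma adjusted p = 0.235, DESeq2 adjusted p = 0.000153). Serping1 was at 963, 397 and 717 against 352, 343 and 361 (0.88, SE 0.29, limma adjusted p = 0.666). Each of the 3 lay above WT-TRAMP in every mutant library, but the rule that named them required groups without overlap. Of the 10 acute-phase genes tested, 6 lay above WT-TRAMP without overlap (7.36% of genes) and the median was 0.63.

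No gene of the 5 other lists passed limma at 30 weeks in either line. Their medians are given beside a median of all genes of 0.01 for KO-TRAMP and 0.00 for A537T-TRAMP. In KO-TRAMP they were −0.18 for 9 other receptor chains, −0.47 for 10 kinases and STATs (8 below 0), 0.06 for 15 inhibitors such as the other SOCS and PIAS genes, and 0.24 for 16 regulators induced by STAT3. In A537T-TRAMP the medians were 0.09, 0.04, 0.07 and 0.20 in the same order. Of 13 ligands and soluble inducers only 5 were tested in each line, with medians of 0.69 and 0.07. Il6, Osm and Lif are named here after their values were seen. Il6 had no read in the 9 libraries of 10 weeks, where a count of 0 allows up to 3 reads in a library, and at most 3.09 normalized counts at 30 weeks. Osm was at most 6.98. Lif was at 7.29 to 15.7 in 30-week KO-TRAMP against 4.80 to 7.98 in WT-TRAMP, and was highest in libraries 9 (43.2) and 14 (45.3).

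At 10 weeks 61 listed genes were tested for KO-TRAMP and 60 for A537T-TRAMP, with no call by limma. In KO-TRAMP the metallothionein Mt2 was at 269 ± 52.8 against 458 ± 62.1 in WT-TRAMP (log2 fold change −0.77, SE 0.17, limma adjusted p = 0.655). The metallothionein Mt1 was at 474 ± 5.23 against 679 ± 55.9 (−0.51, SE 0.10, limma adjusted p = 0.574). Socs2, a relative of Socs3 in the same inhibitor family, was at 136 ± 25.1 against 85.4 ± 12.8 (0.66, SE 0.21, limma adjusted p = 0.716). DESeq2 placed Mt2 and Mt1 past the threshold (adjusted p = 0.0344 and 0.0271).

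In A537T-TRAMP at 10 weeks the largest values rested on library 5. The cyclin gene Ccnd1 was at 203, 9496 and 588 in libraries 4, 5 and 6 against 155 ± 19.5 (log2 fold change 2.75 and 1.16 without library 5, SE 1.23 with it, limma adjusted p = 0.600). The receptor gene Lifr was at 171, 3073 and 453 against 148 ± 26.5 (2.07, SE 0.92, adjusted p = 0.600, and 0.92 without library 5). Seminal vesicle markers in library 5 summed to 90527 RPM, and their part in these values was not tested. Stat5a was at 1418, 1946 and 1524 against 821 ± 291 (1.03, SE 0.25, limma adjusted p = 0.600, DESeq2 adjusted p = 0.0433), and 11.7% of its 30-base words also occur in Stat5b, the gene that shares most of them.

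Some markers of other cells also differed between groups at 30 weeks. In bulk tissue, fewer cells of a type and less RNA per cell cannot be told apart. The 9 macrophage markers summed to 356 to 394 RPM in KO-TRAMP against 130 to 157 in WT-TRAMP, and to 162 to 265 in A537T-TRAMP against 134 to 163 in its table, with none at 0. The 7 fibroblast markers, also with none at 0, summed to 1580 to 1957 in KO-TRAMP against 371 to 427, and to 592 to 979 in A537T-TRAMP against 377 to 435. The 6 adipose markers went the other way, with 4.36 to 44.8 in KO-TRAMP against 35.7 to 113 and 2.40 to 9.26 in A537T-TRAMP against 35.7 to 112, and up to 3 of them at 0. The 6 endothelial markers summed to 51.3 to 91.8 in KO-TRAMP against 31.1 to 32.9, and to 28.2 to 55.5 in A537T-TRAMP against 30.3 to 32.2. Of these sums, the macrophage and endothelial ones of A537T-TRAMP and the adipose ones of KO-TRAMP overlapped WT-TRAMP. In 30-week KO-TRAMP, where 0.213% of genes passed limma, 2 of 9 macrophage, 3 of 7 fibroblast and 2 of 6 skeletal muscle markers passed as higher and 1 of 5 adipose markers as lower. No endothelial marker passed limma, but all 6 were higher at an unadjusted p under 0.05. No luminal marker passed either, with 4 of 8 lower and 1 of 8 higher at an unadjusted p under 0.05. The 6 B and plasma cell markers summed to 3.11 to 6.54 RPM in 30-week KO-TRAMP against 14.7 to 16.1 in WT-TRAMP. In 30-week A537T-TRAMP they summed to 6.57 to 10.7 against 14.1 to 15.5. The 7 T cell markers summed to 7.22 to 8.19 in KO-TRAMP against 9.02 to 9.92. In A537T-TRAMP the T cell sums overlapped WT-TRAMP, at 7.55 to 8.86 against 8.73 to 9.62. Markers also differed at 10 weeks. In A537T-TRAMP 6 of 6 smooth muscle, 4 of 7 fibroblast and 3 of 6 endothelial markers lay above WT-TRAMP without overlap (6.92% of genes). In 10-week KO-TRAMP these were 3 of 6, 0 of 7 and 1 of 6 (5.77% of genes). None of these markers lay below WT-TRAMP without overlap or passed limma at that age. The part of all these cells in the member values and in the age differences was not tested. The 10 neutrophil markers summed to at most 3.83 RPM in any library, with 5 to 9 of them at 0. The 10 immediate early genes, which respond to handling, summed to 233 to 327 in 30-week KO-TRAMP and 194 to 248 in WT-TRAMP, which overlap.

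Genes with a pattern most like Socs3 were sought by Pearson's r of log2 values set relative to WT-TRAMP within each table, over 18 libraries and 9596 other genes with a mean of at least 100. The closest were Ier2 (0.88), Rgs3 (0.88), Akt1 (0.88), C4b (0.87), Krt8 (0.87), Ywhaz (0.87), Mrps18c (0.87) and Kif3b (0.86). Ier2 is also among the immediate early genes above, which respond to handling, and Krt8 is among the luminal markers. The part of handling in the Socs3 values was not tested. Without the 3 KO-TRAMP libraries of 30 weeks, r was 0.87 for Ier2 and 0.67 for Kif3b. Among the members r with Socs3 was 0.88 for Serpina3n, 0.70 for Stat3, 0.65 for Lrg1, 0.55 for Osmr, 0.46 for Il6ra, 0.40 for Cebpd, 0.34 for Saa3, 0.22 for Il6st and −0.28 for Lcn2. Those values include the libraries that chose Socs3, namely the KO-TRAMP and WT-TRAMP libraries of both ages. Leaving out only the KO-TRAMP libraries of 30 weeks does not free r of that choice, because the others stay in. Without those 3 libraries r was 0.79 for Serpina3n, 0.73 for Stat3, 0.68 for Lrg1 and 0.64 for Cebpd. It was 0.40 for Il6ra, 0.35 for Osmr, 0.27 for Saa3, 0.18 for Il6st and −0.21 for Lcn2. With group means removed it was 0.78 for Ier2, 0.36 for Serpina3n, 0.06 for Stat3, −0.18 for Osmr and −0.08 for Lrg1. These values are descriptions over libraries that share group, depth and tissue composition.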

How the data were processed

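Total RNA of 18 libraries was sequenced from stranded libraries. The authors trimmed reads with Trim Galore 0.4.1 and cutadapt 1.18, aligned them with STAR 2.7.3a to GRCm38.p6 masked for nuclear mitochondrial copies, and quantified genes with Salmon, tximport and DESeq2 1.26. They deposited 4 tables of normalized counts, a signal that is an estimated read count divided by 1 factor per library within a table. Every value above 0 was a whole multiple of 1 step within 0.01, so reads were recovered. The same 3 WT-TRAMP columns differed between the KO-TRAMP and A537T-TRAMP tables of an age (30.9 to 37.6% of genes had identical reads), so comparisons stayed within a table. Columns carry library numbers without replicate numbers. Those in both tables of an age were taken as WT-TRAMP. The authors' 4 tables of shrunken fold changes and s-values were not used.

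Normalized counts plus 1 were log2-transformed and fitted with limma 3.58.1 (R 4.3.3, mean-variance trend) for genes with a mean of at least 10, two-sided, with Benjamini-Hochberg adjustment at 0.05. This scale understates changes of low genes. The age difference was an interaction with an intercept for each table. Alternatives were pseudocounts of 0.5 and 10, no filter or a mean of at least 50, TMM factors, edgeR 4.0.16 and DESeq2 1.42.0 on recovered reads, and leaving out each library. The limma, edgeR and DESeq2 fits of the 4 comparisons and the limma fits of the age differences were tested on simulated data. The simulation gave all genes the same dispersion and changed only genes with a mean of at least 50. It had no outlier library, so it does not cover libraries as uneven as these. The planned member counts were over 10 genes. In KO-TRAMP they leave out Socs3, which chose the contrast. Reads per kilobase used the union of exons in GENCODE vM21, an earlier release of the authors' build, in which all 10 member IDs had the same version.

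The members and lists were chosen with earlier results of these data known. Named list genes passed the threshold, or were the 3 largest changes per comparison among those with a mean of at least 50 and no overlap between groups. With 3 libraries per group, limma p-values set a difference against the spread between these libraries, moderated by the trend over all genes.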

Additional observations from a re-analysis of the deposited data

How the results depend on the processing

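No paired analysis was possible because the column headers carry no replicate number. The count of genes past the threshold moved as follows. In 10-week KO-TRAMP it was 2 with limma, 0 with a mean of at least 50 or with edgeR, and 83 with DESeq2. In 30-week KO-TRAMP it was 36, against 15 with edgeR and 805 with DESeq2. In 10-week A537T-TRAMP it was 1, against 0 with a pseudocount of 0.5, a mean of at least 50 or edgeR, and 148 with DESeq2. In 30-week A537T-TRAMP it was 0, against 166 with DESeq2. For the age difference it was 0 in KO-TRAMP, against 1 with a pseudocount of 10 or no filter and 386 with DESeq2, and 0 in A537T-TRAMP, against 51 with DESeq2. Members past the threshold went from 0 to 1 in 30-week KO-TRAMP, 2 in 30-week A537T-TRAMP and 2 for the KO-TRAMP age difference with DESeq2. The cause was not tested. Leaving out 1 library gave 1 to 9 genes (without libraries 8 and 3), 0 to 3064 (0 without library 10, 12 or 18, and 3064 without library 16), 0 to 65 (65 without library 4) and 0 to 145 (145 without library 11) in the same order of comparisons. For the age differences it gave 0 to 1944 (without library 16) in KO-TRAMP and 0 to 20 (without library 11) in A537T-TRAMP. Members then ran from 0 to 2 in 30-week KO-TRAMP and from 0 to 1 for its age difference, with the upper value without library 16.

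The log2 fold change of Lcn2 in 30-week KO-TRAMP, −0.05, turned to 0.023 with a pseudocount of 10, 0.58 with edgeR and 0.57 with DESeq2, and ran from −1.05 to 1.24 with a library left out. The A537T-TRAMP age difference of Il6st, 0.00, turned to −0.017 with TMM factors, −0.014 with edgeR and −0.03 with DESeq2 (−0.090 to 0.11 with a library left out). Other signs turned only with a library left out. In 10-week KO-TRAMP the ranges were −0.21 to 0.28 for Osmr, −0.071 to 0.051 for Il6st, −0.56 to 0.062 for Serpina3n and −0.18 to 1.56 for Lcn2. In 10-week A537T-TRAMP they were −0.42 to 0.15 for Il6ra and −0.81 to 0.13 for Serpina3n, and in 30-week A537T-TRAMP −0.10 to 0.30 for Il6ra. For the age differences they were −1.87 to 0.41 for Lcn2 in KO-TRAMP, and −0.051 to 0.52 for Il6ra and −2.04 to 0.48 for Lcn2 in A537T-TRAMP. Of the alternative values for single genes, 909 kept direction and side of the threshold, 22 gained the threshold, 5 lost it and 31 turned sign. Depth limits Saa3, Il6 and Osm, which have few reads.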
